A study of Mus musculus with 9 samples.

Results

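The 10 genes described here encode the core of the basement membrane that mouse embryonic stem cells make and the receptors that hold them to it. They were chosen by symbol: the laminin chain genes Lama1, Lama5, Lamb1 and Lamc1, the collagen IV chain genes Col4a1 and Col4a2, the linker gene Nid1, the collagen-binding gene Sparc, and the laminin receptor genes Bcam and Dag1. All 10 were found among the 38940 genes of the deposited table, and 9 of them reached the mean level required for testing; Col4a2 did not. RNA-seq libraries were compared in 3 groups of 3. The sample descriptions give Yap/Taz double KO cells as Yap ∆/∆ Taz ∆/∆, Taz KO cells as Yap f/f Taz ∆/∆ and control cells as Yap f/f Taz f/f, where f is a floxed and ∆ a deleted allele. The genotype field of the double KO samples names the genotype of Taz KO instead, so the groups follow the titles and descriptions. Cells of all groups grew on fibronectin in N2B27 medium with 4 ng/ml Lif, 0.4 µM PD0325901 and 3 µM CHIR99021 (inhibitors of MEK and GSK3). Deletion was by Cre-ERT2, carried on a piggyBac transposon and activated with 500 nM 4-OHT, a tamoxifen metabolite. The labels do not say whether control cells received 4-OHT, nor how many clones or cultures a group stands for.

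A basement membrane is a thin sheet of extracellular matrix. Laminins are secreted trimers of an alpha, a beta and a gamma chain that polymerise at the cell surface. Collagen IV forms a second network from trimers of its own chains, nidogen bridges the networks, and integrins, dystroglycan and the Lutheran glycoprotein BCAM anchor cells to laminin. Lama1, Lamb1 and Lamc1 encode the chains of the laminin of the early embryo, made by stem cells and, in much larger amounts, by primitive and parietal endoderm. YAP and TAZ are the transcriptional co-activators of the Hippo pathway and act on DNA through TEAD factors.

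The members lie on 9 chromosomes. The coordinates are those of GENCODE M21 on GRCm38, and all 10 are protein-coding genes. Lama1 (ENSMUSG00000032796) lies on chromosome 17 at 67697259 to 67822647, Lama5 (ENSMUSG00000015647) on chromosome 2 at 180176373 to 180225859, Lamb1 (ENSMUSG00000002900) on chromosome 12 at 31265234 to 31329644, and Lamc1 (ENSMUSG00000026478) on chromosome 1 at 153218922 to 153332786. Nid1 (ENSMUSG00000005397) lies on chromosome 13 at 13437551 to 13512269, Sparc (ENSMUSG00000018593) on chromosome 11 at 55394500 to 55423183, Bcam (ENSMUSG00000002980) on chromosome 7 at 19756131 to 19771016, and Dag1 (ENSMUSG00000039952) on chromosome 9 at 108204634 to 108263958. Col4a1 (ENSMUSG00000031502; 11198423 to 11312826, minus strand) and Col4a2 (ENSMUSG00000031503; 11312805 to 11449287, plus strand) are a divergent pair on chromosome 8 whose first exons share 22 bases. Shared exon bases with a gene on the opposite strand were few for the others: 52 bases of Bcam with Gm26600 (1.63% of its exons), 143 of Nid1 with Gm48682 (2.06%) and 43 of Col4a2 with Gm15419 (0.65%).

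Upstream sequences are shown for Lamb1, the laminin chain gene that was lower in both knockout groups, and for Nid1, the one member among the 8 with a start-site window whose window held the letters GGAATG, a core of the TEAD binding site. They come from RefSeq start-site windows on GRCm38.p6 (250 bases before to 50 bases after each start) and stop where an annotated exon begins. The Lamb1 stretch is chr12:31265043-31265233 and the Nid1 stretch is chr13:13437352-13437550, both on the plus strand. Capitals mark matches to 4 motifs searched on both strands: GGAATG (TEAD), TGANTCA (AP-1), GGGCGG (GC box) and CCAAT. No match shown overlaps another.

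Lamb1: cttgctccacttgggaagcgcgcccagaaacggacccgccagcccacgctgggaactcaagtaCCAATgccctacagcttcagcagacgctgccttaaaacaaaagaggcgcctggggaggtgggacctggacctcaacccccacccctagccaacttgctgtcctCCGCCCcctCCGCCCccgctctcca

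Nid1: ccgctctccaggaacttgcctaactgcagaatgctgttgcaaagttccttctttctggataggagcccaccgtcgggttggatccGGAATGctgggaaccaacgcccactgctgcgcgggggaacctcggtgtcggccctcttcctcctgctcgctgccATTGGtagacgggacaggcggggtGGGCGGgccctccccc

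Windows were at hand for 8 members, 9 windows in all; Lama1 and Lamc1 were not searched. GGAATG occurred in 1 of these 9 windows and in 14.7% of all 32851 windows, and TGANTCA occurred in 0 of the 9 and in 7.81% of all. GGGCGG occurred in 8 of the 9 windows, for 7 of the 8 members, and in 35.7% of all windows. CCAAT occurred in 6 of the 9 windows and in 37.4% of all, for 5 of the 8 members: Col4a1, Col4a2, Dag1, Lamb1 and Nid1. A match is a run of letters and not a binding site, and a missing match says only that the letters are not in these windows.

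Levels are FPKM values, fragments per kilobase of transcript scaled for depth, so they may be compared between genes as well as between libraries. Each group value is a mean ± SD over 3 libraries (n = 3). Between 19.14 and 23.99 M reads per library lay behind the values. Differences were tested with limma on log2(FPKM + 0.5) for the 11674 genes with a mean of at least 1 FPKM, and a difference was called at a Benjamini-Hochberg adjusted p under 0.05; all adjusted p-values below are of this kind. Fold changes on this scale understate those of genes near 1 FPKM. Whether the libraries of a group were separate cultures is not stated in the labels; the spread behind each p-value is that between libraries and may be technical. Yap1 stood at 4.25 ± 0.334 FPKM in double KO, 18.3 ± 0.346 in Taz KO and 18.4 ± 0.573 in control, while Wwtr1, which encodes TAZ, stood at 13.9 ± 0.772, 10.8 ± 1.58 and 12.1 ± 0.847 in the same groups, so its total level does not check the deletion of Taz. Libraries that carry the same replicate number deviated together, and a fit with that number as a block is given beside each result whose call it changes.

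Yap/Taz double KO cells had lower transcript levels of a laminin beta and gamma chain, a collagen IV chain, SPARC and a laminin receptor, and a higher level of 1 laminin alpha chain. In double KO against control, Lamb1, Lamc1, Col4a1, Sparc and Bcam fell and Lama1 rose: 5 falls and 1 rise among 9 tested, where 12.9% of all tested genes fell and 12.4% rose (25.3% called). The median log2 fold change of the 9 was -0.41, against -0.02 over all tested genes. Bcam moved most, to 12.8% of its control mean, followed by Lamb1 at 45.3% and Col4a1 at 46.2%. Lama5, Nid1 and Dag1 did not pass the test. With the replicate block Nid1 (adjusted p = 0.001) and Dag1 (adjusted p = 0.0218) were called lower too, in a fit that called 52.4% of all tested genes (28.1% lower and 24.2% higher). These are bulk libraries, in which fewer cells of a type and less RNA per cell cannot be told apart.

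In Taz KO against control only Lamb1 passed among the 9 tested members, at 64.2% of control, where 0.565% of all tested genes fell and 0.72% rose (1.28% called). The median of the members was -0.30 on the log2 scale, against 0.01 over all tested genes. The Lamb1 call was lost in 6 of 9 fits that left out 1 library each, with an adjusted p of 0.0591 to 0.133 (without control 1, control 2, Taz KO 1, 2 or 3, or double KO 1), and without a filter on low values, with each gene centred on its chromosome's median or with only these 2 groups in the fit (adjusted p = 0.0546, 0.051 and 0.0665). With the replicate block 5 members were called: Lamb1, Lama5, Nid1 and Bcam lower and Lama1 higher. That fit called 11.8% of all tested genes, 4.05% lower and 7.78% higher.

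In double KO against Taz KO, 3 of the 9 tested members fell (Bcam, Lamb1 and Sparc) and 0 rose, where 7.45% of all tested genes fell and 6.42% rose (13.9% called). The median of the members was -0.22 on the log2 scale, against -0.04 over all tested genes. With the replicate block 6 members fell, Lamc1, Col4a1 and Dag1 being added, where 25.6% of all tested genes fell and 16.8% rose (42.4% called). Since Taz KO and double KO were compared with the same 3 control libraries, these comparisons are not independent of each other.

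**Figure D1:**
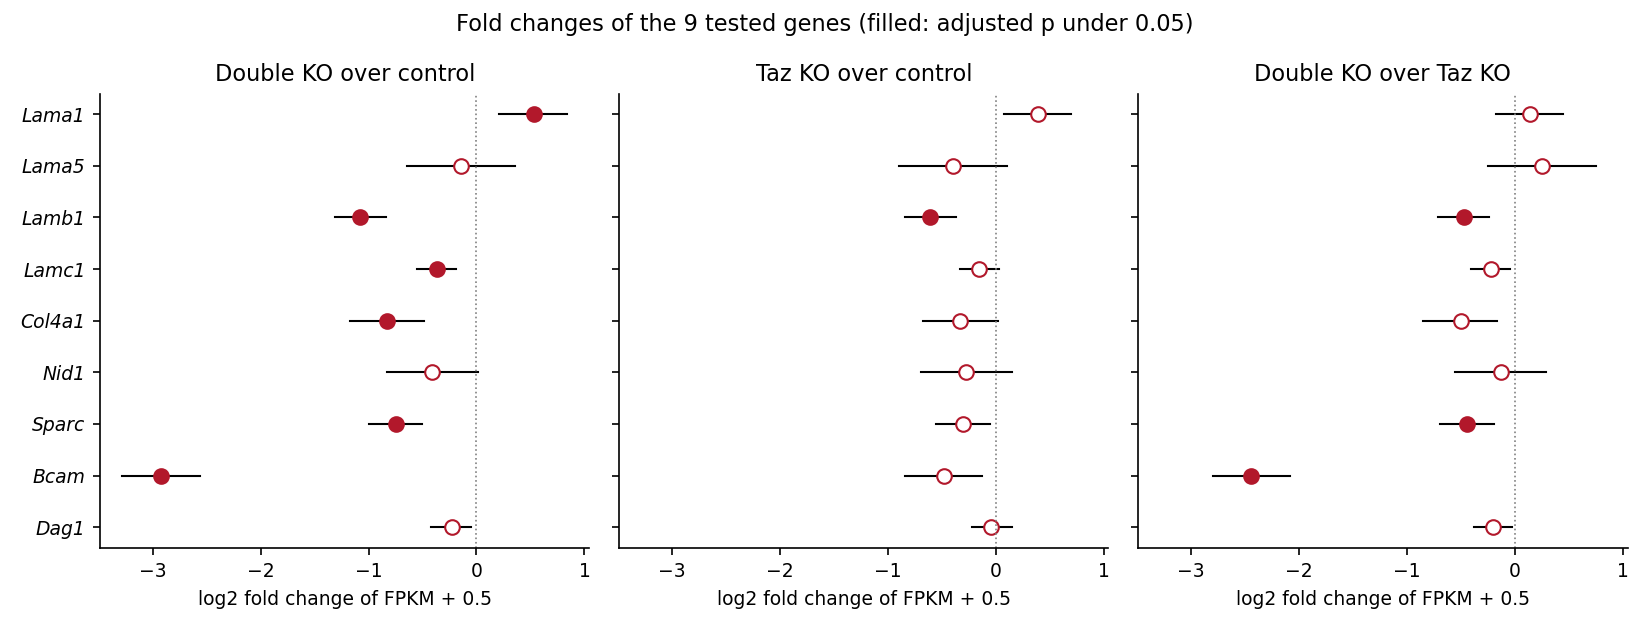
Log2 fold changes of FPKM + 0.5 for the 9 tested genes in the 3 comparisons, with 95% confidence intervals as lines and filled points for an adjusted p under 0.05 (limma). Bcam lies farthest to the left in double KO over control (-2.92) and in double KO over Taz KO (-2.44), and Lama1 is the one gene called higher (0.53).

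Among the laminin alpha chains, Lama1, the alpha chain of the early embryonic laminin, was at 22.9, 24 and 27.0 FPKM in double KO, 18.9, 25.7 and 22.8 FPKM in Taz KO, and 16.0, 19.9 and 15.2 FPKM in control. Every double KO library lay above every control library, while Taz KO overlapped both groups. The double KO mean of 24.6 ± 2.11 FPKM was 145% of the control mean of 17 ± 2.51, a log2 fold change of 0.53 (SE 0.14, 95% interval 0.21 to 0.84, adjusted p = 0.024). Without control 1, control 3 or double KO 3 that rise was not called (adjusted p = 0.0891, 0.082 and 0.0807). In Taz KO the log2 fold change against control was 0.39 (adjusted p = 0.255, or 0.0457 with the replicate block), and between double KO and Taz KO it was 0.14 (95% interval -0.17 to 0.45, adjusted p = 0.533).

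Lama5, the alpha chain that is found in most basement membranes of later tissues, was at 41.0, 59.7 and 45.5 FPKM in double KO, 35.7, 55.7 and 33.2 FPKM in Taz KO, and 53.3, 63.1 and 44.6 FPKM in control. The groups overlapped, and in each the library numbered 2 was the highest. No comparison was called: log2 fold changes were -0.14 in double KO against control (95% interval -0.64 to 0.36, adjusted p = 0.669), -0.39 in Taz KO against control (adjusted p = 0.555, or 0.0305 with the replicate block) and 0.25 between double KO and Taz KO (adjusted p = 0.48).

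Lamb1 encodes a beta chain that partners both alpha chains. It was at 5.96, 5.63 and 6.57 FPKM in double KO, 8.87, 9.03 and 7.86 FPKM in Taz KO, and 13, 15.1 and 11.9 FPKM in control. The groups were fully separated in this order, each Taz KO library lying between the other two groups. The log2 fold change was -1.08 in double KO against control (SE 0.10, adjusted p = 0.000339), -0.61 in Taz KO against control (SE 0.10, adjusted p = 0.0287) and -0.47 in double KO against Taz KO (SE 0.10, adjusted p = 0.0206). The fall against control in double KO was called in all 9 fits that left out 1 library, with an adjusted p of at most 0.00297. The difference between double KO and Taz KO was not called without Taz KO 1 (adjusted p = 0.0858), without double KO 1 (0.0676) or when libraries were scaled to their totals (0.0644).

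Lamc1, the gamma chain shared by most laminins, was the most abundant of the laminin transcripts, at 80.8, 76.4 and 79.4 FPKM in double KO, 89.3, 96.7 and 89.6 FPKM in Taz KO, and 99.5, 111 and 95.6 FPKM in control. Double KO libraries lay below all others, and Taz KO overlapped control by 1 library. The double KO mean was 77.2% of control (log2 fold change -0.37, SE 0.08, adjusted p = 0.0108). The log2 fold change was -0.15 in Taz KO against control (adjusted p = 0.511) and -0.22 in double KO against Taz KO (adjusted p = 0.0996, or 0.0212 with the replicate block). The fall in double KO depended on the scaling, at -0.19 with quantile normalization (adjusted p = 0.277) and -0.29 with libraries scaled to their totals (adjusted p = 0.0549).

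The balance between chains was followed as ratios of FPKM values within each library. The Lama5 to Lama1 ratio was 1.79, 2.49 and 1.69 in double KO, 1.89, 2.17 and 1.46 in Taz KO, and 3.32, 3.17 and 2.94 in control. Both knockout groups lay wholly below control and overlapped each other. The Lamb1 to Lamc1 ratio was 0.0738, 0.0737 and 0.0828 in double KO, 0.0993, 0.0934 and 0.0877 in Taz KO, and 0.131, 0.136 and 0.125 in control. Lamb1 was thus scarcer than Lamc1 in every library, and the 3 groups did not overlap. This ratio leaves out Lamb2, another beta chain gene, at 14.1 ± 1.08 FPKM in double KO, 19.8 ± 3.77 in Taz KO and 15.1 ± 2.33 in control. Lamb2 was not called against control in either knockout group (limma adjusted p = 0.694 and 0.319). In log2 units the Lama5 to Lama1 ratio differed from control by -0.68 in double KO and -0.79 in Taz KO, and the Lamb1 to Lamc1 ratio by -0.77 and -0.48 in the same order. An exact two-sided permutation test gave p = 0.1 for each of these 4 differences, the smallest value that 3 against 3 libraries can give, and 0.18 after Benjamini-Hochberg adjustment over 9 ratio tests. Between double KO and Taz KO the Lamb1 to Lamc1 ratio differed by -0.28 (exact permutation p = 0.1) and the Lama5 to Lama1 ratio by 0.11 (exact permutation p = 0.7).

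**Figure D2:**
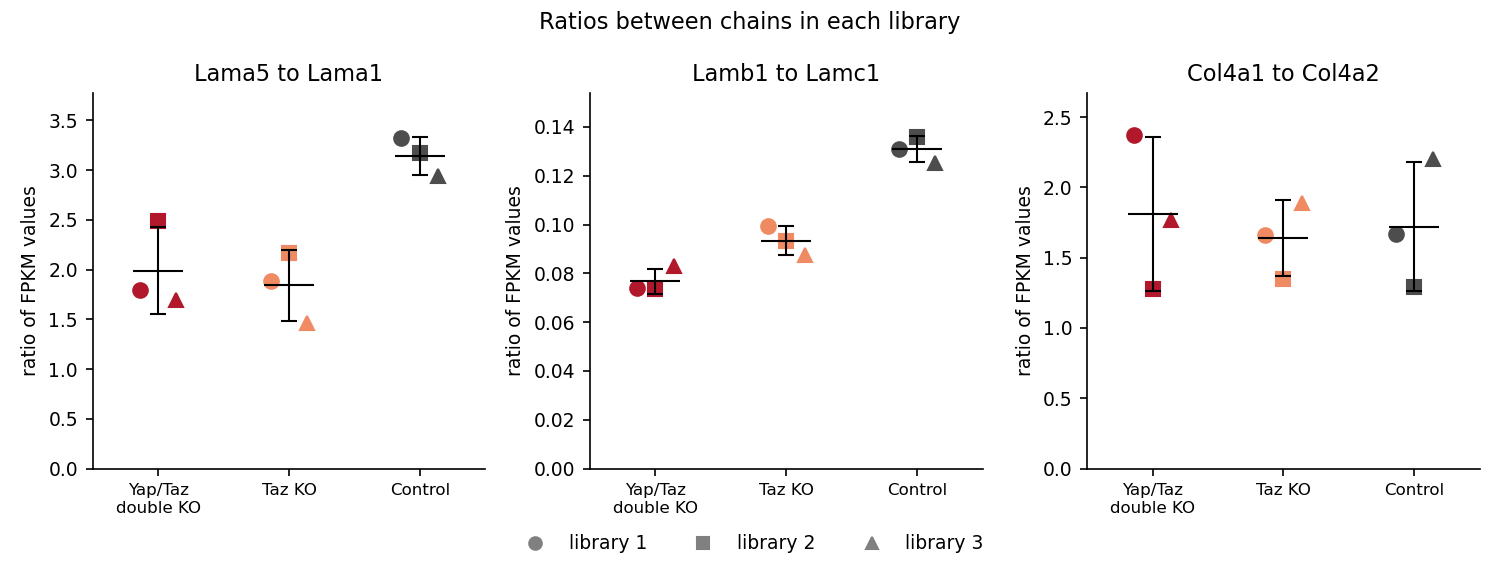
Ratios of FPKM values between chains in each library (points, with shape for the library number), with the group mean and SD as lines. Control libraries lie above both knockout groups for Lama5 to Lama1 (2.94 or more, against 2.49 or less) and for Lamb1 to Lamc1, and the groups overlap for Col4a1 to Col4a2.

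The collagen IV chain genes were expressed at a low level, and Col4a1, which averaged 0.958 FPKM in double KO, reached the mean for testing through the other groups. Col4a1 was at 0.887, 1.19 and 0.793 FPKM in double KO, 1.81, 1.61 and 1.28 FPKM in Taz KO, and 2.20, 2.06 and 1.97 FPKM in control, from 132, 195 and 106 reads, 269, 252 and 160 reads, and 357, 311 and 261 reads in those libraries. The 3 groups did not overlap, with Taz KO between the others. The log2 fold change was -0.83 in double KO against control (SE 0.15, adjusted p = 0.00551), -0.33 in Taz KO against control (adjusted p = 0.429) and -0.50 in double KO against Taz KO (adjusted p = 0.0595, or 0.0128 with the replicate block). That last difference was called with quantile normalization (adjusted p = 0.0302), without a variance trend (0.037), in voom fits of the recovered reads (0.0335 and 0.0359) and without double KO 2 (0.0342). The fit without double KO 2 was the only 1 of 9 without 1 library to call it, with an adjusted p of up to 0.208 in the others. Under the other alternatives its adjusted p ran up to 0.151.

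Col4a2, whose product joins that of Col4a1 in the same trimer, was at 0.374, 0.934 and 0.447 FPKM in double KO, 1.09, 1.19 and 0.674 FPKM in Taz KO, and 1.32, 1.60 and 0.895 FPKM in control, from as few as 54 reads. The double KO library numbered 2 stood apart from the other two and overlapped both other groups. In the fit without a filter, over 24621 genes, the log2 fold change was -0.72 in double KO against control (SE 0.25, adjusted p = 0.116, or 0.0179 with the replicate block), -0.25 in Taz KO against control (adjusted p = 0.888) and -0.47 in double KO against Taz KO (adjusted p = 0.366). The Col4a1 to Col4a2 ratio was 2.37, 1.28 and 1.77 in double KO, 1.66, 1.35 and 1.89 in Taz KO, and 1.67, 1.29 and 2.20 in control, and the groups overlapped. The log2 differences of that ratio were 0.06, -0.05 and 0.11 in double KO against control, Taz KO against control and double KO against Taz KO (exact permutation p = 0.8, 0.9 and 0.8), and they changed sign with 0.5 FPKM added to both values (-0.11 and -0.03 in the comparisons of double KO).

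Both genes lie on chromosome 8, whose tested genes as a whole were shifted up in both knockout groups. Over 670 tested genes of chromosome 8 the median log2 fold change was 0.30 in double KO against control, with 36.7% of them called higher, and 0.35 in Taz KO against control; between double KO and Taz KO it was -0.03. The values of Col4a1 against control lay on the other side of 0 from these medians. Relative to the median of chromosome 8 its log2 fold change was -1.14 in double KO against control (adjusted p = 0.00359) and -0.67 in Taz KO against control (adjusted p = 0.236). The part of this chromosome-wide shift in the values of Col4a1 and Col4a2 was not tested further.

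Nid1, whose product links laminin to collagen IV, was at 55.8, 57.6 and 38.1 FPKM in double KO, 58.5, 61.5 and 45.1 FPKM in Taz KO, and 67.7, 74.7 and 56.9 FPKM in control. The groups overlapped, and in each the library numbered 3 was the lowest. The log2 fold changes were -0.41 in double KO against control (95% interval -0.83 to 0.01, adjusted p = 0.137), -0.27 in Taz KO against control (adjusted p = 0.666) and -0.13 between double KO and Taz KO (adjusted p = 0.668). With the replicate block, which compares libraries of the same number, the adjusted p against control was 0.001 in double KO and 0.0242 in Taz KO.

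Sparc encodes a secreted glycoprotein that binds collagen IV, and it had the highest level of the 10 genes in every group. It was at 130, 101 and 128 FPKM in double KO, 172, 152 and 163 FPKM in Taz KO, and 189, 215 and 195 FPKM in control. The 3 groups did not overlap. The double KO mean was 59.8% of control (log2 fold change -0.75, SE 0.11, adjusted p = 0.00216), a fall that was called in all 9 fits without 1 library. The log2 fold change in Taz KO against control was -0.30 (adjusted p = 0.271), and double KO stood at 73.8% of Taz KO (-0.44, adjusted p = 0.0312). That last call was lost in 7 of 9 fits without 1 library (adjusted p = 0.0504 to 0.123), all but those without control 2 or Taz KO 2, and with quantile normalization, no filter or only these 2 groups (0.127, 0.0613 and 0.0795).

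Bcam encodes the Lutheran glycoprotein, an immunoglobulin-family receptor for the laminin alpha5 chain. It was at 7.79, 10.8 and 6.71 FPKM in double KO, 48.1, 44.2 and 49 FPKM in Taz KO, and 65.2, 73.8 and 59.7 FPKM in control. The lowest Taz KO library was far above the highest double KO library, and all Taz KO libraries lay below all control libraries. The log2 fold change was -2.92 in double KO against control (SE 0.16, 95% interval -3.28 to -2.56, adjusted p = 2.42e-05) and -2.44 in double KO against Taz KO (adjusted p = 0.00018), and both were called in all 9 fits without 1 library. In Taz KO against control it was -0.48, to 71.1% of control (adjusted p = 0.207, or 0.0486 with the replicate block). Lama5, which encodes the ligand chain, did not pass the test in any comparison, as given above.

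Dag1 encodes dystroglycan, a receptor for laminin and perlecan that is cleaved into an extracellular and a transmembrane subunit. It was at 30.2, 26.3 and 29.4 FPKM in double KO, 34.3, 31.3 and 33.1 FPKM in Taz KO, and 33.1, 35.9 and 32.3 FPKM in control. The highest double KO library lay just below the lowest of the others, and Taz KO and control overlapped. The log2 fold change was -0.23 in double KO against control (95% interval -0.42 to -0.05, adjusted p = 0.0637, or 0.0218 with the replicate block) and -0.20 in double KO against Taz KO (adjusted p = 0.135, or 0.0484 with the replicate block). Between Taz KO and control it was -0.04 (95% interval -0.22 to 0.15, adjusted p = 0.954).

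**Figure D3:**
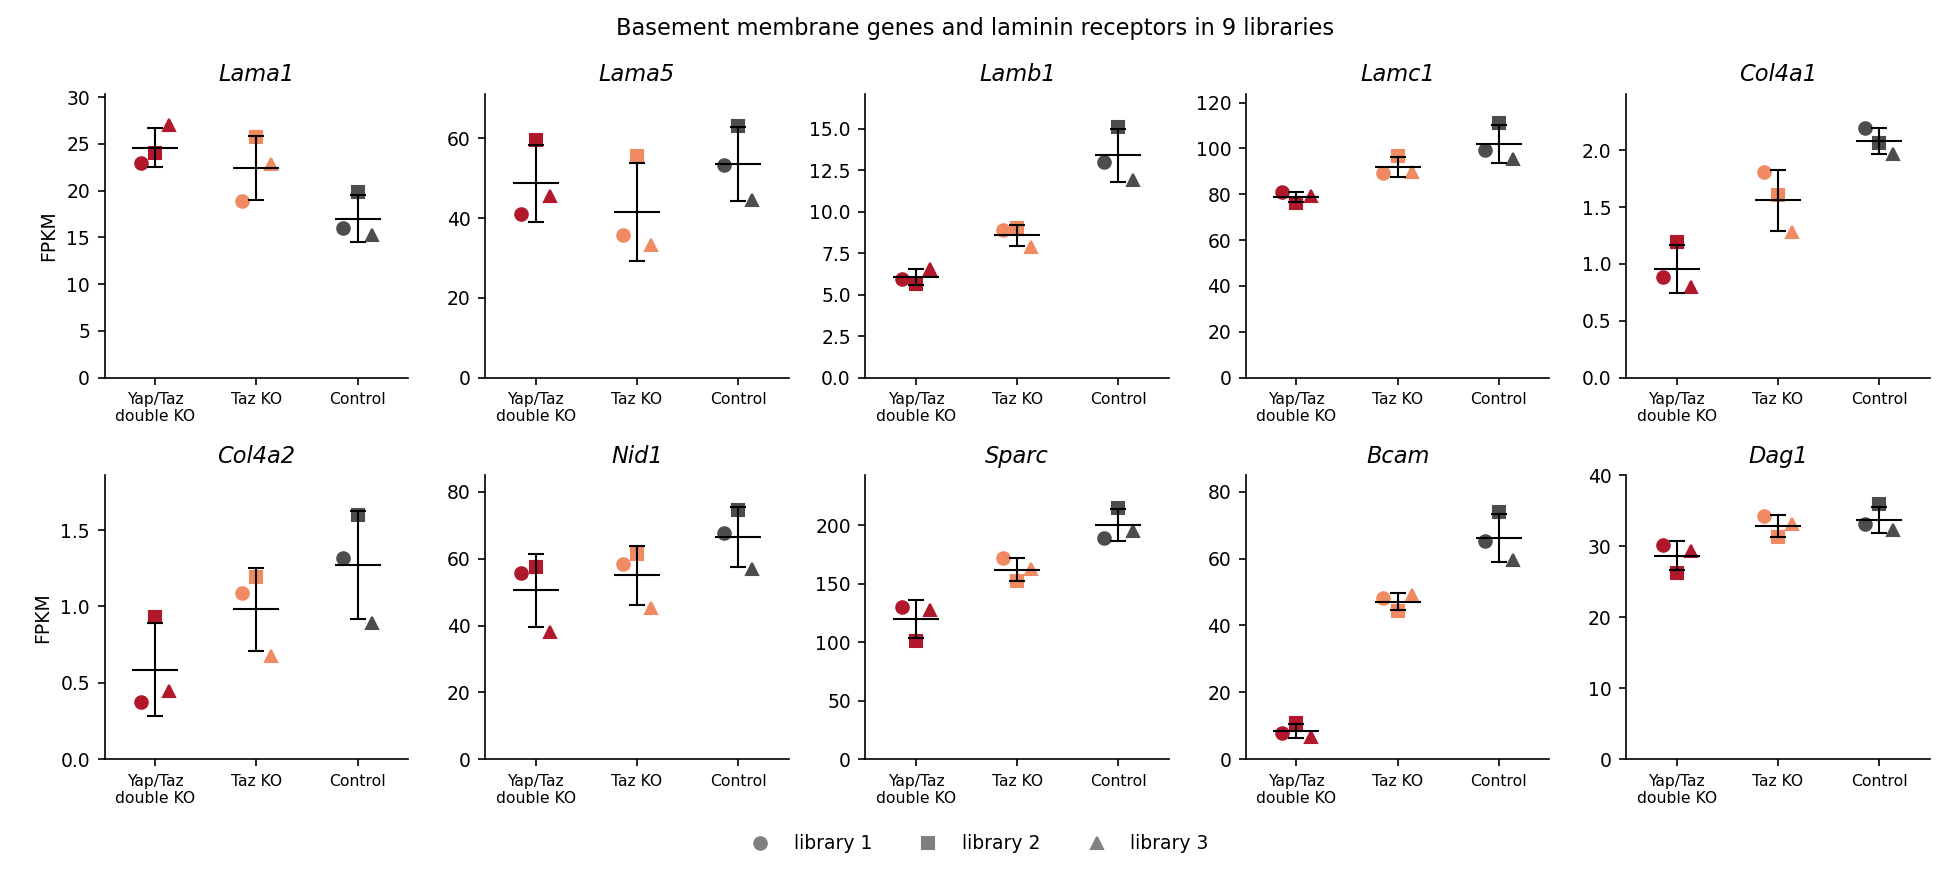
FPKM of the 10 genes in each of the 9 libraries (points, with shape for the library number), with the group mean and SD as lines; every axis starts at 0. Bcam lies at 6.71 to 10.8 FPKM in the 3 double KO libraries, against 59.7 FPKM or more in control, and Lamb1, Col4a1 and Sparc are lowest in double KO, intermediate in Taz KO and highest in control.

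Counted by whether groups overlap, 6 of the 10 members were lower in all double KO libraries than in all control libraries, 1 was higher and 3 overlapped; of all tested genes 23.8% were wholly lower and 21.7% wholly higher (45.6% in either direction). In Taz KO against control 4 members were wholly lower and 0 wholly higher, where 7.84% and 10.9% of all tested genes were (18.7% together). In double KO against Taz KO 6 were wholly lower and 0 wholly higher, where 16.5% and 14.1% were (30.6% together).

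The order of the levels changed at 1 gene. In control it ran Sparc, Lamc1, Nid1, Bcam, Lama5, Dag1, Lama1, Lamb1, Col4a1 and Col4a2, and in Taz KO it was the same. In double KO Bcam stood below Lama1 and above Lamb1. Nid1, Bcam and Lama5 were not separated in control, where their libraries overlapped, nor in Taz KO, where Lama5 also overlapped Dag1; in double KO Nid1 overlapped Lama5, Dag1 overlapped Lama1 and Col4a1 overlapped Col4a2.

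As a description, without a test, member levels were correlated over the 9 libraries on the log2(FPKM + 0.5) scale; the points share group and library number, so these values mix both. Lamb1 followed Lamc1 (Pearson r = 0.96) and Sparc (0.94), Sparc followed Dag1 (0.93), and Col4a1 followed Bcam (0.92) and Col4a2 (0.89). Lama1 ran against Col4a1 (-0.78), Lamb1 (-0.71) and Sparc (-0.71). Lama5 was near no other member, at most 0.57 with Nid1. The tested genes most like Bcam were Ptprf (0.996), Chst3, Aldh18a1 and Ift46 (0.993 each) and Asns (0.992). The most like the mean of Col4a1 and Col4a2 were Mgat3 (0.988), Gm26510 and Eva1b (0.985 each), Gnas (0.982) and Tcfl5 (0.979). The most like the mean of Lama1, Lamb1 and Lamc1 were Atxn2 (0.956), Map4k1 (0.955), Zfp420 (0.951), Gltscr1l (0.934) and 2410137M14Rik (0.927). Since Lama1 ran against Lamb1 (-0.71) and Lamc1 (-0.54), that mean mixes opposing patterns. Its closest genes are therefore not shown to follow the single laminin chains.

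Of 26 other structural genes of the basement membrane, 13 were tested, and in double KO against control 6 fell and 0 rose, where 12.9% of all tested genes fell. Among the falls were Col18a1, Hspg2, Fbln1, Agrn and Nid2. Of the other 7, Lamb2 (-0.09) and the fibronectin gene Fn1 (0.17) were near 0 on the log2 scale, and Frem2 (0.55) and Tinagl1 (0.66) had positive values, none of them called. The median log2 fold change over the 13 was -0.38, against -0.02 over all tested genes. Col18a1, which encodes the collagen XVIII core of a heparan sulfate proteoglycan, was at 5.62 ± 1.71 FPKM in double KO and 20.8 ± 0.691 FPKM in control (log2 fold change -1.84, adjusted p = 0.0024). Nid2, the relative of Nid1, was at 56.4 ± 5.37 FPKM in double KO and 78.2 ± 2.34 FPKM in control (-0.47, adjusted p = 0.00462), and Fbln1 at 12.8 ± 0.53 and 22.2 ± 2.5 FPKM in these groups (-0.76, adjusted p = 0.00131). In Taz KO against control 0 of the 13 were called (4 with the replicate block). Over all tested genes 1.28% were called there, and 11.8% with the block. In double KO against Taz KO 4 fell and 0 rose (7 and 1 with the replicate block), among them Nid2 (-0.57, adjusted p = 0.00482), Col18a1 (-1.33, 0.0178) and Agrn (-0.40, 0.0262). Of all tested genes 7.45% fell and 6.42% rose in that comparison, and 25.6% and 16.8% with the block. The calls of Col18a1 and Agrn in that comparison were lost in 2 of 9 (without Taz KO 1 or 3) and 3 of 9 fits (without Taz KO 3, double KO 1 or 3) that left out 1 library, with adjusted p-values of up to 0.0783 and 0.0871.

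Of 14 receptors other than Bcam and Dag1, 11 were tested, and 2 rose and 1 fell in double KO against control (3 and 3 with the replicate block). These 3 of 11 were near the 25.3% of all tested genes called, and the count with the block near its 52.4%. Lgals3, which encodes the lectin galectin-3, rose to 6.48 ± 1.26 FPKM in double KO, against 2.88 ± 0.394 FPKM in control (log2 fold change 1.04, adjusted p = 0.00175). Sdc2, a syndecan, fell to 14 ± 1.29 FPKM in double KO, against 20.1 ± 0.395 FPKM in control (-0.51, adjusted p = 0.00404). Itgb1, the beta1 integrin chain, was higher in double KO (0.38, adjusted p = 0.0358) and in Taz KO (0.59, adjusted p = 0.0434) than in control, but it lies on chromosome 8, and centred on that chromosome's median neither difference was called (adjusted p = 0.436 and 0.19). The double KO call was also lost without control 1, control 2, Taz KO 1, double KO 1 or double KO 3 (adjusted p = 0.0562 to 0.12), and the Taz KO call without any of these or without Taz KO 2 or 3 (0.0591 to 0.201). Its laminin-binding partner Itga6 was at 23.1 ± 2.29, 22.9 ± 3.05 and 23.4 ± 2.61 FPKM in double KO, Taz KO and control, and no comparison of it was called.

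The genes that glycosylate or anchor dystroglycan were mostly not called: of 26 listed and 22 tested, 1 rose and 1 fell in double KO against control, where 25.3% of all tested genes were called (5 and 4 with the replicate block, where 52.4% were). The fall was Dpm3, a subunit of dolichol-phosphate mannose synthase (-0.69, adjusted p = 0.00421). The rise was Pomk, a kinase of O-mannosyl glycans on chromosome 8 (0.42, adjusted p = 0.00707), which was also the 1 call in Taz KO against control (0.58, adjusted p = 0.0138). Centred on the median of chromosome 8, Pomk was not called in either (adjusted p = 0.426 and 0.446), and the Taz KO call was lost without control 1, control 2 or Taz KO 3 (0.0691 to 0.0858).

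Among 16 tested of 19 genes of collagen folding and cross-linking, 1 rose and 2 fell in double KO against control, where 25.3% of all tested genes were called (1 and 6 with the replicate block, where 52.4% were). The rise, Leprel2, and the fall of Fkbp10 were of genes that reached the mean for testing through the group where they were high. Ppib, a prolyl isomerase of the endoplasmic reticulum, fell to 67.9 ± 4.03 FPKM in double KO, against 92.1 ± 3.09 FPKM in control (-0.44, adjusted p = 0.0131). Fkbp10, another collagen-associated isomerase, was at 0.729 ± 0.393 FPKM in double KO and 1.95 ± 0.128 FPKM in control (-1.04, adjusted p = 0.0111), and Leprel2, a relative of collagen prolyl hydroxylases, was at 1.59 ± 0.392 FPKM in double KO and 0.68 ± 0.0842 FPKM in control (0.81, adjusted p = 0.0132, or 0.0512 without double KO 3). Serpinh1, the collagen chaperone HSP47, was at 28.2 ± 3.47 FPKM in double KO, 20.4 ± 2.47 in Taz KO and 28.1 ± 2.71 in control. It was not called against control in either knockout group (adjusted p = 0.993 in double KO and 0.127 in Taz KO). It was higher in double KO than in Taz KO (0.46, adjusted p = 0.0397), a call kept only without control 3 or Taz KO 2 among the 9 fits without 1 library (0.0503 to 0.151 in the others).

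Of 18 genes of matrix proteases and their inhibitors, 11 were tested, with 2 rises and 1 fall in double KO against control (3 and 2 with the replicate block). That was near the shares of all tested genes called, 25.3% and 52.4% with the block. Htra1, a secreted serine protease, fell to 0.855 ± 0.176 FPKM in double KO and 2.38 ± 0.366 FPKM in Taz KO, against 5.87 ± 1.53 FPKM in control (-2.21 and -1.12, adjusted p = 0.000198 and 0.0258). The Htra1 call in Taz KO was lost in 5 of 9 fits without 1 library, those without control 1 or 2, Taz KO 1 or 3, or double KO 1 (adjusted p = 0.054 to 0.125). The rise of Adam9 on chromosome 8 (0.28, adjusted p = 0.0146), turned to -0.03 when centred on its chromosome and was not called without control 1 or double KO 3 (adjusted p = 0.0605 and 0.056).

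In the list of Sparc relatives and matricellular genes, 4 of 10 were tested and all 4 fell in both knockout groups against control. Of all tested genes 12.9% fell in double KO and 0.565% in Taz KO against control. Among the 4, Cyr61 and Smoc1 reached the level for testing through the control libraries. Their falls are therefore not independent of the filter, and the count of 4 is not a test of the list. Fstl1, a secreted relative of Sparc, fell to 11.6 ± 1.06 FPKM in double KO and 14.2 ± 0.301 FPKM in Taz KO, against 26.3 ± 1.07 FPKM in control (-1.15 and -0.86, adjusted p = 7.67e-05 and 0.00393). Smoc1, a basement membrane protein with a Sparc-like domain, was at 0.417 ± 0.161 FPKM in double KO, 0.41 ± 0.239 in Taz KO and 3.68 ± 0.976 in control (-2.17 and -2.20 against control, adjusted p = 0.000761 and 0.00962). Cyr61, a matricellular protein and a widely used YAP target, was at 0.344 ± 0.0848 FPKM in double KO, 1.19 ± 0.29 in Taz KO and 3.52 ± 0.215 in control (-2.25 and -1.26 against control, adjusted p = 9.38e-05 and 0.012). Ctgf, the remaining tested gene, was at 3.21 ± 0.391 FPKM in double KO, 3.86 ± 0.954 in Taz KO and 7.33 ± 0.752 in control (-1.08 and -0.86 against control, adjusted p = 0.00197 and 0.0373). The Taz KO calls of Smoc1 and Cyr61 were lost without control 1, control 2 or Taz KO 3, with an adjusted p of up to 0.0742 and 0.0809. For Ctgf the fits without 1 library are not reported here.

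In Taz KO against control the receptor, dystroglycan and folding lists each had 1 rise (Itgb1, Pomk and Colgalt1, the last a collagen galactosyltransferase, all on chromosome 8) and 0 falls, and the protease list had 1 fall, Htra1. The share of all tested genes called there was 1.28%. Colgalt1 (log2 fold change 0.50, adjusted p = 0.0282) was not called when centred on its chromosome (adjusted p = 0.695) or in 7 of 9 fits without 1 library, all but those without control 3 or double KO 2 (0.0516 to 0.161). The dystroglycan, folding and protease lists each had 1 rise and 1 fall with the replicate block. That fit called 11.8% of all tested genes in Taz KO against control. In double KO against Taz KO the receptor and protease lists each had 1 rise and 1 fall, the dystroglycan list 1 fall, the folding list 2 rises and 2 falls, and the Sparc list 2 falls. With the block the rises and falls there were 2 and 4 for receptors, 2 and 3 for proteases, 3 and 6 for dystroglycan, 2 and 7 for folding, and 0 and 2 for the Sparc list. Over all tested genes 13.9% were called in that comparison and 42.4% with the block.

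**Figure D4:**
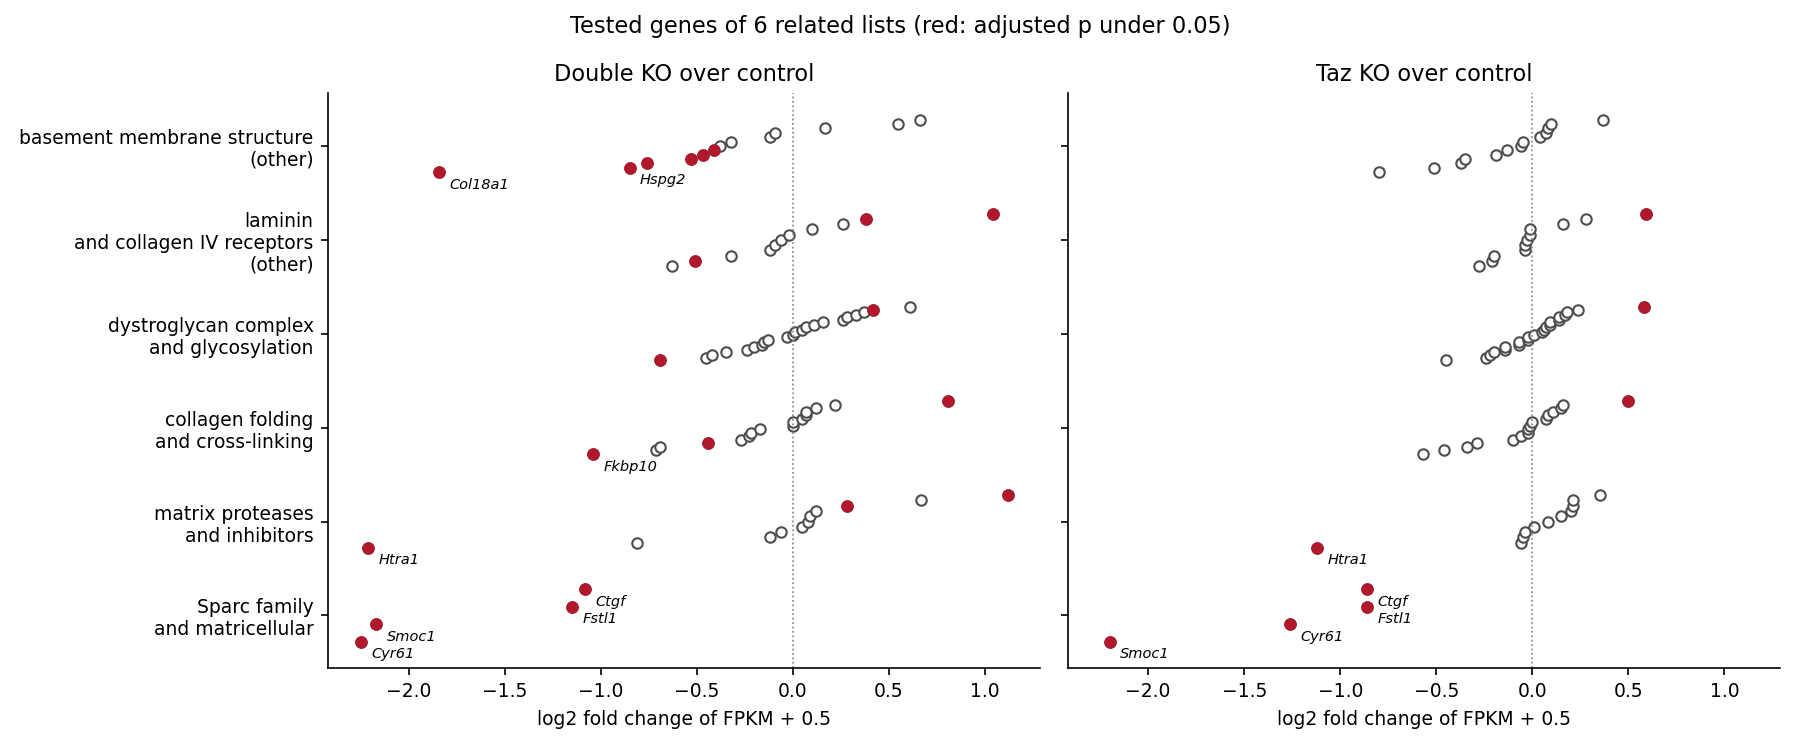
Log2 fold changes of FPKM + 0.5 for the tested genes of 6 related lists in double KO over control and Taz KO over control, one row of points per list, with red for an adjusted p under 0.05 (limma) and names for called genes whose value is -0.8 or lower. In double KO over control the red points of the basement membrane list are all to the left of 0 (6 genes), and those of the receptor, glycosylation, folding and protease lists lie on both sides.

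The labelled cell type was checked against markers fixed by list. All 10 stem cell markers were at 1 FPKM or more in each group, and their summed level was 2710 to 2940 FPKM in double KO, 4310 to 4630 in Taz KO and 5120 to 5500 in control, of which Dppa5a made up the greater part of the difference (1140, 2580 and 3260 FPKM on average). Of these 10 markers 6 fell (Dppa5a, Fgf4, Klf4, Sox2, Tdgf1 and Nanog) and 1 rose (Zfp42) in double KO against control, in Taz KO against control 0 were called, and in double KO against Taz KO 5 fell. The shares of all tested genes called were 25.3%, 1.28% and 13.9% in the same order of comparisons. Primitive and parietal endoderm secretes the same laminins and collagen IV, and its 15 markers summed to 7.08 to 11.1 FPKM in double KO, 7.29 to 8.87 in Taz KO and 16.9 to 20.4 in control. In each group 2 of these 15 reached 1 FPKM: Gata4, at 2.12 ± 0.806, 1.68 ± 0.594 and 1.74 ± 0.341, and Fst, at 5.19 ± 3.37, 4.75 ± 1.83 and 14.2 ± 1.11 in double KO, Taz KO and control. Fst was called lower in double KO against control (log2 fold change -1.6, adjusted p = 0.0365) but not in Taz KO against control (-1.54, 0.175). Gata4 was not called. Sox17, Gata6, Sox7 and Foxa2, which define that lineage, averaged 0.343 FPKM or less in each group, and Ttr was at 0 in all libraries. The 13 fibroblast markers summed to 4.00 to 11.8 FPKM in double KO, 2.58 to 6.33 in Taz KO and 3.04 to 5.03 in control, mostly Thy1, with Dcn, Lum and Postn at 0. The 9 trophectoderm markers summed to 104 to 137 FPKM in double KO, 68.0 to 83.9 in Taz KO and 65.1 to 72.1 in control, mostly Krt8 and Tfap2c. In each group 5 of these 9 reached 1 FPKM: Krt8, Tfap2c, Krt18, Krt7 and Eomes, the last at 8.38, 8.23 and 6.68 FPKM. Cdx2, Elf5, Gata3 and Hand1 averaged 0.378 FPKM or less. Of the 5 tested, Krt8 (0.98, adjusted p = 0.00348) and Tfap2c (0.78, 0.000578) rose in double KO against control and 0 fell. Over all tested genes 25.3% were called there. The part of such cells in the values above was not tested.

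The libraries numbered 2 stood apart within their groups. A chi-square of the recovered reads was 12.9 to 36.4 per gene in pairs that include a library numbered 2 and 4.71 to 8.20 in the other pairs of a group. Of the 30 sets of 3 values formed by 10 members and 3 groups, the library numbered 2 was the highest in 20, and for Lama5, Nid1 and Col4a2 it was so in all 3 groups. The like share over all tested genes was not counted, so this is not shown to be particular to the members. Fits on the libraries numbered 1 and 3 alone, an alternative chosen after seeing the data, again called 1 rise and 5 falls among the 9 members in double KO against control and 1 fall in Taz KO against control, where they called 41.9% and 3.62% of all tested genes. Between double KO and Taz KO, where they called 36.6% of all tested genes, they called 1 rise and 6 falls in place of 3 falls, the rise being Lama5 (log2 fold change 0.32, adjusted p = 0.0458).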

How the data were processed

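The authors deposited FPKM values, 1 column per library. Tools listed in the submitters' processing notes, without roles, are HTSeq 0.6.1, TopHat2 2.1.1 and DESeq2, with the build mm10. The annotation and the strand setting were not given, so reads of overlapping or antisense genes may be split. Within a gene the values were whole multiples of the worth of 1 read for 24621 of 24621 genes above 0 (tolerance 0.001), and that worth was inversely proportional to a size factor by median of ratios, so the columns were already on a common scale. Recovered reads are the smallest whole numbers possible for a gene.

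From the deposited FPKM values, log2(FPKM + 0.5) was fitted with limma 3.58.1 in R 4.3.3 (group means, 9 libraries, 6 residual degrees of freedom, variance trend) for genes with a mean of at least 1 FPKM, with two-sided tests and Benjamini-Hochberg adjustment over all genes tested. The step was run on simulated reads, drawn independently for each library with the same spread setting for all genes and no effect of the replicate number. That run does not show how the fit behaves where libraries of the same number deviate together. Chain ratios were compared by exact permutation tests.

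The replicate numbers of the titles were taken to pair libraries because deviations from group means correlated at 0.192 to 0.711 in each of 9 same-number pairs and at -0.688 to 0.394 in 18 others. These ranges overlap, and they are not independent, since deviations within a group cancel out. The pairing was thus taken from these same data, and what the number marks is not stated. Alternatives were other pseudocounts, filters and scalings, centring on chromosome medians, voom on recovered reads, the replicate block, a fit of 2 groups only and leaving out each library. From related lists at most 3 rises and 3 falls with the smallest adjusted p per comparison were eligible to be named with values; Hspg2, Agrn, Itga6, Serpinh1 and Ctgf were named after their values were seen where the rule did not name them, and some genes that it names are not reported here. The members, lists and rules were chosen with earlier results of these data known.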

Additional observations from a re-analysis of the deposited data

How the results depend on the processing

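With the replicate block the count of genes called was 6112 in double KO against control (2948 without it), 1381 in Taz KO against control (150) and 4947 in double KO against Taz KO (1620), and the count of members was 8, 5 and 6 in place of 6, 1 and 3. On libraries numbered 1 and 3 only the counts of genes were 4889, 423 and 4277, and 7 members were called in double KO against Taz KO. In fits without 1 library each the counts of genes were 1505 to 3568, 11 to 230 and 482 to 2648, and those of members 5 to 6, 0 to 1 and 1 to 3, in the same order of comparisons. In Taz KO against control 0 members were called without a filter, with centring on chromosome medians and with only 2 groups in the fit; the last 2 gave 75 and 88 genes, and only 2 groups gave 635 genes in double KO against Taz KO. The cause of these changes was not tested, beyond the fewer libraries of some fits.

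Without 1 library the log2 differences of the Lama5 to Lama1 ratio ran from -0.85 to -0.57 in double KO against control, -0.92 to -0.63 in Taz KO against control and -0.06 to 0.24 in double KO against Taz KO. Those of the Lamb1 to Lamc1 ratio ran from -0.82 to -0.74, -0.53 to -0.44 and -0.34 to -0.24, and those of the Col4a1 to Col4a2 ratio from -0.16 to 0.29, -0.24 to 0.14 and -0.11 to 0.34. The Col4a1 to Col4a2 ratio turned to -0.11 and -0.03 in the comparisons of double KO with 0.5 added. Small values of single genes turned sign: Dag1 in Taz KO against control ran from -0.07 to 0.01 without 1 library each (0.00 without Taz KO 2) and was 0.04 on libraries numbered 1 and 3, Nid1 in double KO against Taz KO ran from -0.27 to 0.06, the last without double KO 3, and Adam9 in double KO against control was -0.03 when centred on its chromosome. Of 117 member values per comparison under alternatives other than leaving out 1 library, 113, 109 and 102 kept their direction and their side of the threshold, and of 81 without 1 library, 78, 73 and 70 did. The replicate block changed no call of a member other than those given with the results. Col4a1 and Col4a2 rest on 54 to 357 reads per library, which limits their precision.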
